A study of Rattus norvegicus with 8 samples.

Results

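Toll-like receptors, their co-receptors and their signaling proteins were followed in peripheral blood mononuclear cells (PBMCs) cultured with plasma of rats that had been exposed to intermittent hypoxia (IH) as newborns. The 9 genes chosen were the receptors Tlr2, Tlr3, Tlr4 and Tlr7, the co-receptors Cd14 and Ly96, the adaptor Myd88, the kinase Irak2 and the ubiquitin ligase Traf6. Every probe set annotated to exactly 1 of these symbols was used, which gave 11 probe sets of 8 genes, out of 31042 probe sets and 14217 named genes in all. Tlr3, a receptor for double-stranded RNA, had no probe set in the annotation used and was not analysed here. Traf6 had 4 probe sets, and each of the other genes had 1.

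Toll-like receptors recognize conserved microbial molecules and molecules released by damaged cells. TLR2 responds to bacterial lipoproteins as a heterodimer with TLR1 or TLR6, TLR4 responds to lipopolysaccharide handed over by CD14 and bound with MD-2 (the product of Ly96), and TLR7 responds to single-stranded RNA inside endosomes. The receptors recruit the adaptor MyD88, which assembles IRAK kinases and TRAF6, and the cascade ends in NF-kB and interferon regulatory factors that drive cytokine genes such as Tnf. In blood, CD14, TLR2 and TLR4 are best known from monocytes, whereas TLR7 is also known from B cells and plasmacytoid dendritic cells.

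The PBMCs came from 2 healthy male Brown Norway (BN) rats of about 180 days, BN1 and BN2, called reporter donors here, and 500000 cells were cultured for 6 h with 20% plasma. The autologous group received BN plasma. The control, 5% IH and 10% IH groups received pooled plasma of male Sprague-Dawley (SD) rats, aged PD114 (postnatal day), that had breathed 21%, 5% or 10% O2 in intermittent cycles for 1 h daily on postnatal days 2 to 6, with 8, 5 and 3 rats in the respective pools. There was 1 array per donor and plasma, that is 2 arrays in each of 4 groups and 8 in all, and each plasma was pooled once. The spread between arrays is therefore that of 2 reporter donors and does not include the spread between plasma rats or pools. Control and autologous plasma differ in strain, age, source animals, place of breeding and housing, and pooling at once, and these cannot be told apart. The SD rats were also fasted overnight before blood was taken, and no fast is described for the BN rats. The labels of the autologous arrays disagree. Their titles give BN1 and BN2 as reporter donors, but another field of the first names BN1 and BN2 together, and both list BN1 as the plasma. Whether the BN2 cells received their own plasma, and hence the pairing by donor for this group, is not settled.

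Levels are RMA values on the log2 scale, on which 1 unit is a doubling of hybridization signal. Array medians lay between 5.53 and 5.56. A level was compared between groups for 1 probe set at a time, never between probe sets. A probe set was called higher or lower by the study's criterion, a Rank Product p under 0.05 in that direction together with a difference of group means beyond 1.2-fold, which is 0.26 on the log2 scale. That p is not adjusted for the number of probe sets. In all comparisons among SD plasmas every probe set past the 1.2-fold threshold also passed the Rank Product (963 of 963 for 5% IH against control, 2156 of 2156 for 10% IH against control and 1966 of 1966 for 5% IH against 10% IH), so there the criterion was the 1.2-fold threshold alone. Between the 2 donor arrays of a single group, from 11.9% to 18.3% of all probe sets were past that threshold. The second test was limma, with p adjusted over all 31042 probe sets (Benjamini-Hochberg), and standard errors (SE) are limma's.

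SD control plasma was set against autologous plasma as the baseline of the bioassay. With control plasma, Cd14 was 38.8-fold higher than with autologous plasma, and the receptors Tlr7, Tlr2 and Tlr4 were 1.86-fold, 1.82-fold and 1.61-fold higher. By the criterion 9 of 11 probe sets were higher and 0 lower, where 5.33% of all probe sets were higher and 5.15% lower. The adjusted limma test called 5 of 11, where it called 1.78% of all probe sets. Counting 1 probe set per gene, the one with the highest mean level, 7 of 8 genes were higher, with a median log2 ratio of 0.58, and Myd88 was not called.

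Tlr2, the receptor for lipoproteins, lay at 7.11 on both autologous arrays (BN1 and BN2) and at 7.89 and 8.04 with control plasma. With 5% IH plasma it lay at 8.20 and 8.44, and with 10% IH plasma at 8.07 and 7.99. The autologous arrays were the lowest, the 5% IH arrays the highest, and the control and 10% IH arrays overlapped between them. Control exceeded autologous plasma by 0.86 (SE 0.11, n = 2 arrays per group, limma adjusted p = 0.0035).

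Tlr4, the receptor for lipopolysaccharide, lay at 5.00 and 5.18 with autologous plasma and at 5.74 and 5.81 with control plasma. It lay at 5.55 and 5.52 with 5% IH plasma and at 5.54 and 5.73 with 10% IH plasma. Here the control arrays were the highest of the 8, and the 5% and 10% IH arrays overlapped. Control exceeded autologous plasma by 0.69 (SE 0.10, n = 2, limma adjusted p = 0.0111).

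Tlr7, the endosomal receptor for single-stranded RNA, lay at 4.89 and 5.30 with autologous plasma and at 6.04 and 5.94 with control plasma. It reached 6.24 and 6.66 with 5% IH plasma and lay at 5.87 and 5.82 with 10% IH plasma. No groups overlapped, and their order was 5% IH, control, 10% IH and autologous from high to low, although the gap of 0.14 between control and 10% IH was smaller than its SE of 0.16. Control exceeded autologous plasma by 0.90 (SE 0.16, n = 2, limma adjusted p = 0.0278).

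The promoters of these 3 receptors are shown because their transcripts were all higher with SD plasma than with autologous plasma but were ordered differently among the SD plasmas. Each is the 300 bases from 250 before to 50 after the annotated start in RefSeq (build GRCr8), printed 5′ to 3′ on the gene's strand, at chr2:171504508-171504807 (minus strand) for Tlr2, chr5:85160997-85161296 (plus) for Tlr4 and chrX:30644176-30644475 (plus) for Tlr7. Capitals mark matches to the NF-kB consensus in Tlr2 and to GAGGAA, the core bound by the myeloid factor PU.1, in Tlr4 and Tlr7. In Tlr4 both matches lie on the other strand and read TTCCTC.
Tlr2: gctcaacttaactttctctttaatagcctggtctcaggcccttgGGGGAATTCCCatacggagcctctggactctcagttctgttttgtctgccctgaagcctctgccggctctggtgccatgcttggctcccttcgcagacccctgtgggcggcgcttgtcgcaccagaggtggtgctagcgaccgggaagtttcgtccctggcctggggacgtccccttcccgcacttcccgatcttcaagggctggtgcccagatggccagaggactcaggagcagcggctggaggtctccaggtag
Tlr4: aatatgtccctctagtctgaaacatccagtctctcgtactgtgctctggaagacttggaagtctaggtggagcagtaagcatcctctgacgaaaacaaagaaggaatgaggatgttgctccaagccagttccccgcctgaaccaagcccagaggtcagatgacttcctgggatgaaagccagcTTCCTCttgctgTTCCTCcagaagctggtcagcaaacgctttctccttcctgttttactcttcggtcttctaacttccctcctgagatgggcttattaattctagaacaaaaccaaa
Tlr7: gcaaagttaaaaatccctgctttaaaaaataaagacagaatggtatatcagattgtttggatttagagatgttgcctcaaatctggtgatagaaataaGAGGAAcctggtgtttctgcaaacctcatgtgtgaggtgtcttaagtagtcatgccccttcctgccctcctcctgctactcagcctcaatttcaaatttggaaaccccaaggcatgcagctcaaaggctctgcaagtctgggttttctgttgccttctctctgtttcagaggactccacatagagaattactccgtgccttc
The Tlr2 window held 2 overlapping NF-kB matches, which together span 11 bases and begin at -206 and -205 from the start site. The Tlr4 window held 2 GAGGAA matches, at -67 and -55, and the Tlr7 window held 1, at -152. Searched on both strands over 33469 promoters of the same length, the NF-kB consensus was found in 4.18%, GAGGAA in 27.6%, the AP-1 motif TGANTCA in 7.33% and the C/EBP motif TTNNGNAA in 41.3%. Tlr7 also held 2 C/EBP matches, left in lower case, and none of the 3 windows held the AP-1 motif. Such matches are letters in a window, and no binding was measured.

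Cd14, which encodes the co-receptor that transfers lipopolysaccharide to TLR4, lay at 4.48 and 4.78 with autologous plasma. It lay at 9.78 and 10.03 with control plasma, at 10.21 and 10.40 with 5% IH plasma and at 9.93 and 9.94 with 10% IH plasma. All SD plasma arrays were far above both autologous arrays. The 5% IH arrays were the highest, and the 10% IH arrays lay within the range of the control arrays. The control ratio was 5.28 (SE 0.13, n = 2, limma adjusted p = 8.55e-07). The autologous levels lay under 4.87, the 40th percentile of mean levels on these arrays, and no detection calls were used, so how much of that signal is Cd14 transcript is not known.

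Ly96, whose product MD-2 binds lipopolysaccharide beside TLR4, lay at 6.08 and 6.45 with autologous plasma and at 6.68 and 6.78 with control plasma. With 5% IH plasma it lay at 6.68 and 6.69, and with 10% IH plasma at 6.44 and 6.69. The control ratio of 0.47 (SE 0.14, n = 2) met the criterion, and its limma adjusted p was 0.207. The lower 10% IH array fell within the autologous range.

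Downstream of the receptors the ratios were smaller. Myd88, the adaptor shared by most of these receptors, stayed between 8.96 and 9.22 on all 8 arrays, and its control ratio was 0.10 (SE 0.10, n = 2, limma adjusted p = 0.835). Irak2, a kinase that sustains the MyD88 signal, lay at 8.50 and 8.52 with autologous plasma and between 8.78 and 8.96 on the 6 SD plasma arrays. Its control ratio of 0.31 (SE 0.08) met the criterion, with a limma adjusted p of 0.172.

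Traf6, the ubiquitin ligase that activates the kinases upstream of NF-kB, was read by 4 probe sets that differed in their ratios. Control exceeded autologous plasma by 0.46 (1383778_at), 0.42 (1392660_at), 0.41 (1393809_at) and 0.24 (1384582_at). The first 3 met the criterion, and 1383778_at alone had a limma adjusted p under the threshold, at 0.0411. The brightest, 1392660_at, was at most 9.11 with autologous plasma and lay at 9.51 and 9.44 with control, 9.38 and 9.37 with 5% IH and 9.22 and 9.40 with 10% IH plasma. The donors differed most for 1393809_at with 10% IH plasma, at 8.76 for BN1 and 9.46 for BN2, a span that held all 4 control and 5% IH values of this probe set.

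**Figure D1:**
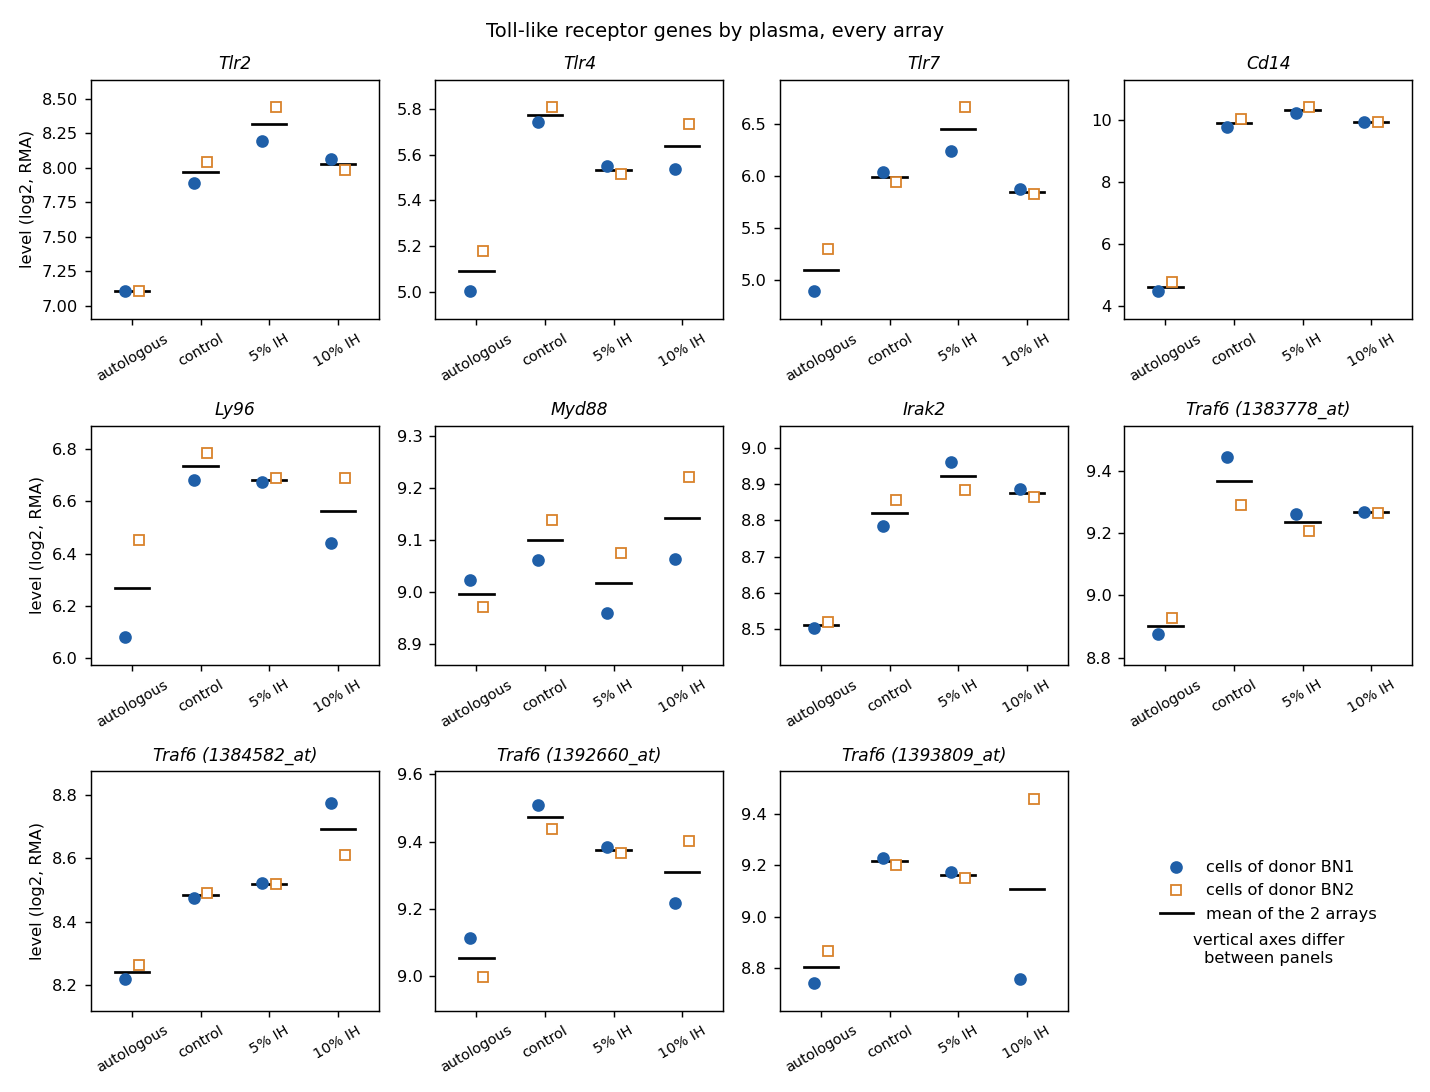
Level of each of the 11 probe sets (log2 RMA value, vertical axis, with its own range in each panel) by plasma group, 4 of them for Traf6. Circles are reporter donor BN1, squares BN2, and bars are group means of 2 arrays; Cd14 lay at 4.48 and 4.78 with autologous plasma and between 9.78 and 10.40 on the other arrays, while Myd88 stayed between 8.96 and 9.22.

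Some of these calls rested on single arrays. Without control BN2 the limma adjusted p of Tlr2 was 0.0581. That of Tlr4 was 0.0759 without autologous BN1, 0.0740 without control BN1 and 0.126 without control BN2. That of Tlr7 was 0.148, 0.212 and 0.164 without the same arrays. Traf6 1383778_at lost its call without any 1 of the 4 arrays, with adjusted p from 0.113 to 0.288, and had an adjusted p of 0.0603 with the donor as a block and 0.0565 after median centring. Ly96 no longer met the criterion without autologous BN1, at a ratio of 0.28, nor did Irak2 without control BN2, at 0.27, or with a 2-sided Rank Product p. In the other direction, a limma fit with an intensity trend and robust moderation called Irak2 (adjusted p = 0.0458) and Traf6 1392660_at (0.0141), and the latter was also called with low probe sets left out (0.0479). Cd14 kept both calls in each of these fits, with ratios from 5.13 to 5.43.

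The same direction was seen with the other SD plasmas, which were compared with the same autologous arrays. With 5% IH plasma 10 of 11 probe sets were higher than with autologous plasma, where 5.41% of all probe sets were, and limma called 3 of 11 (Cd14 5.68 or 51.3-fold, Tlr7 1.36 and Tlr2 1.21), where it called 1.96%. With 10% IH plasma 9 of 11 were higher, where 5.13% were, and limma called 3 of 11 (Cd14 5.31 or 39.6-fold, Tlr2 0.92 and Tlr4 0.55), where it called 1.25%. Myd88 was not called in either. Irak2 narrowly missed the limma threshold with 5% IH plasma (0.41, adjusted p = 0.0501), and was called with the trended robust fit (0.0071) and with low probe sets left out (0.0213). The limma call of Tlr4 with 10% IH plasma (adjusted p = 0.0448) was lost without any 1 array of the 2 groups (0.0675 to 0.252), with the compared arrays alone (0.242) and after a second quantile normalization (0.0511). With 10% IH plasma the trended robust fit also called Tlr7 (0.0323), Irak2 (0.0220) and Traf6 1383778_at (0.0282) and 1384582_at (0.0098), the last of which was called with low probe sets left out as well (0.0290). With 5% IH plasma it called Traf6 1383778_at (0.0346), and leaving out low probe sets added Tlr4 (0.0493). Ly96 no longer met the criterion without autologous BN1 in either comparison (0.23 and 0.11) or, with 10% IH plasma, without 10% IH BN2 (0.17). Traf6 calls were also lost with 5% IH plasma, for 1384582_at without any 1 array (0.26 to 0.30), for 1392660_at without 5% IH BN1 (0.31) or autologous BN2 (0.26) and for 1383778_at without 5% IH BN1 (0.30). With 10% IH plasma 1393809_at kept its call only without 10% IH BN1 (0.65), and 1392660_at met the criterion without 10% IH BN1 (0.35) or autologous BN1 (0.31). With a 2-sided Rank Product p, Traf6 1384582_at and 1392660_at lost their calls with 5% IH plasma and Ly96 and Traf6 1393809_at with 10% IH plasma, and Ly96 and 1393809_at lost them with low probe sets left out too.

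Genes that mark cell types were examined beside these results, since PBMCs are a mixture. Among 8 monocyte markers 7 were higher with control than with autologous plasma, where 5.33% of all probe sets were. They were led by Csf1r (2.89), Lyz2 (2.45) and Itgam (2.08), followed by Adgre1 (1.05), Cd68 (0.96), Ccr2 (0.70) and Cx3cr1 (0.41). Limma called 5 of them, where it called 1.78% of all probe sets, and Cd163 differed by 0.01. Their mean level was 5.02 and 5.34 on the autologous arrays, 6.43 and 6.56 with control, 6.50 and 6.66 with 5% IH and 6.49 and 6.51 with 10% IH plasma, so the autologous arrays stood apart from the 6 others. Of the monocyte markers Ccr2 (at most 3.54) and Cd163 (at most 3.15) lay under 4.87 on all 8 arrays. How much of the signal of these 2 is transcript is not known. Among the 7 T cell markers 0 were called, with mean levels between 9.48 and 9.64 on all 8 arrays. Of 3 measured B cell markers 0 were called. Of 5 measured neutrophil markers Csf3r (0.87) and S100a8 (0.34) were higher, and of 5 NK cell markers Gzmb was lower (-0.33). Both control arrays of S100a8 (5.62 and 5.79) lay between its autologous arrays (4.84 and 5.90). Among 4 platelet and 2 red cell markers 0 were called. Over all probe sets 5.33% were higher and 5.15% lower in this comparison, so 0 calls in lists this small are near that share. The Toll-like receptor genes and the monocyte markers thus differed in the same direction against autologous plasma. In whole PBMC cultures fewer cells of a type and less RNA per cell cannot be told apart, and the part of the monocyte content in the receptor ratios was not tested.

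**Figure D2:**
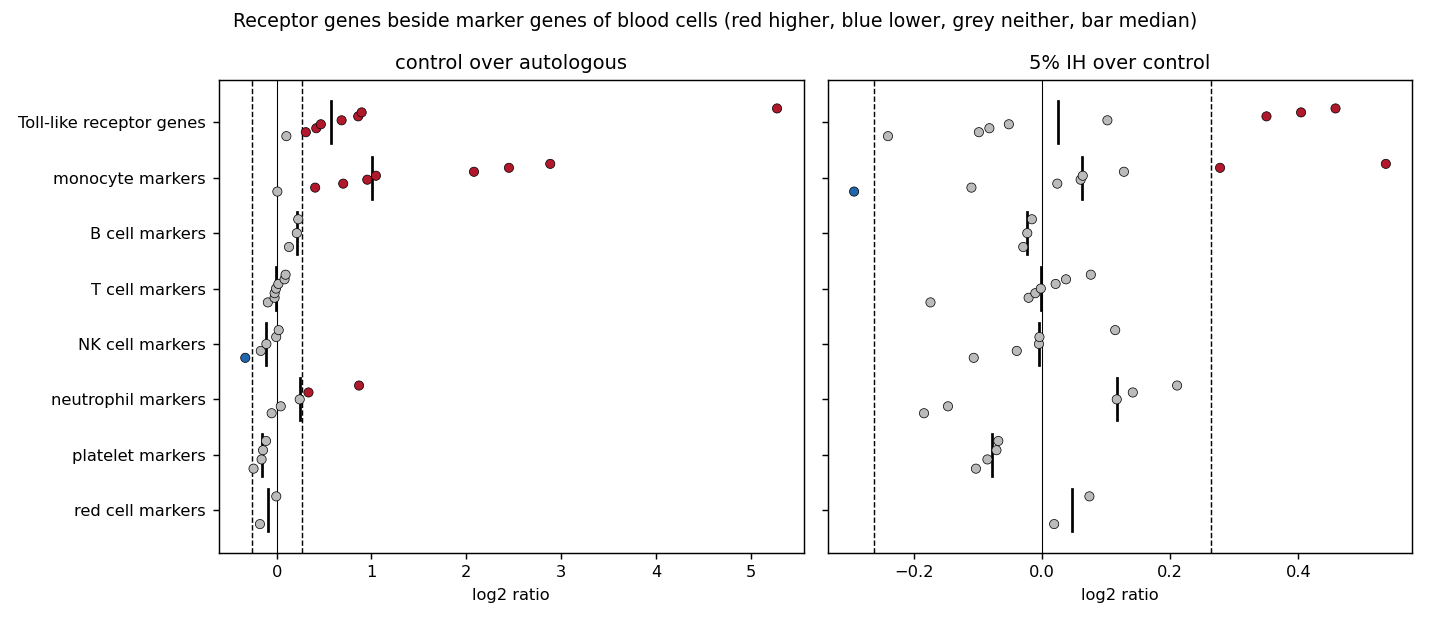
Log2 ratios (horizontal axis) of the measured Toll-like receptor genes and of the measured markers of each cell type. Each point is 1 gene, and bars are medians. The panels show control against autologous plasma and 5% IH against control plasma. The median of the 8 monocyte markers was 1.00 and 0.06 in these panels, and that of the 7 T cell markers was -0.006 and -0.002.

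To read the effect of neonatal 5% IH, 5% IH plasma was compared with control plasma, 1 pool each and both from SD rats. Tlr7, Cd14 and Tlr2 were higher with 5% IH plasma, by 1.37-fold, 1.32-fold and 1.27-fold, and met the criterion. These were 3 of 11 probe sets, where 1.58% of all probe sets were higher, and 0 of 11 were lower, where 1.52% were. Limma called 0 probe sets in the whole table after adjustment, and 790 (4 of them among the 11) had an unadjusted p under 0.05, which is 2.54% of all. The adjusted p of every probe set described here was 1.

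Tlr7 differed by 0.46 (SE 0.16, 95% limma interval 0.09 to 0.83), with 0.20 in BN1 and 0.72 in BN2. Cd14 differed by 0.40 (SE 0.13, interval 0.11 to 0.70), with 0.43 in BN1 and 0.38 in BN2. Tlr2 differed by 0.35 (SE 0.11, interval 0.11 to 0.59), with 0.30 in BN1 and 0.40 in BN2. For each of these genes both 5% IH arrays lay above both control arrays. These intervals are for 1 probe set at a time and are not adjusted. Without the 5% IH array of BN2 the ratio of Tlr7 was 0.25 and that of Tlr2 0.23, both under the threshold, whereas Cd14 stayed past it without any 1 array (0.28 to 0.53).

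Tlr4 lay on the other side. Both 5% IH arrays were below both control arrays, and the ratio of -0.24 (SE 0.10, interval -0.48 to -0.01; -0.19 in BN1 and -0.29 in BN2) did not reach the threshold. It became -0.27 and met the criterion without control BN1. The remaining probe sets did not meet it, with ratios of 0.10 for Irak2 (interval -0.09 to 0.29), -0.05 for Ly96 (-0.36 to 0.26) and -0.08 for Myd88 (-0.30 to 0.14), and from -0.13 to 0.04 for the 4 of Traf6. The median over the 8 genes was 0.02. Of the monocyte markers Adgre1 (0.54) and Itgam (0.28) were higher with 5% IH plasma, where 1.58% of all probe sets were. Ccr2 (-0.29) was lower, where 1.52% were. The other 5 were not called, with a median of 0.06 over the 8. Ccr2 lay under 4.87 on every array, so how much of its signal is transcript is not known. The part of the monocyte markers in these ratios was not tested.

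The 10% IH pool was compared in the same way with the same control arrays. None of the 11 probe sets met the criterion (0 of 11), where 3.58% of all probe sets were higher and 3.37% lower. Ratios were 0.06 for Tlr2 (95% limma interval -0.18 to 0.30), 0.03 for Cd14 (-0.27 to 0.33), -0.14 for Tlr4 (-0.37 to 0.10), -0.14 for Tlr7 (-0.51 to 0.23) and -0.17 for Ly96 (-0.48 to 0.14). Myd88 differed by 0.04 and Irak2 by 0.06. Each of these 5 intervals reaches past 1.2-fold in at least 1 direction, so they do not exclude a difference of that size. Limma called 0 probe sets in the table after adjustment and 1612 (5.19%) at an unadjusted p under 0.05, of which Traf6 1384582_at (0.21, SE 0.09) was the only one of the 11. Traf6 1393809_at had a ratio of -0.11 that became -0.46, and met the criterion, without 10% IH BN2, and was 0.24 without 10% IH BN1. Ly96 was -0.29, just past the 1.2-fold threshold without meeting the criterion, when 10% IH BN2 was left out. None of the 8 monocyte markers was called.

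The 5% IH and 10% IH plasmas were then compared directly, as 1 pool against 1 pool. Tlr7 was 1.52-fold, Cd14 1.30-fold and Tlr2 1.22-fold higher with 5% IH than with 10% IH plasma. These were again 3 of 11 probe sets by the criterion, where 3.28% of all probe sets were higher, and 0 were lower, where 3.06% were. This comparison shares the 5% IH arrays with the one above. Tlr7 differed by 0.60 (SE 0.16, interval 0.23 to 0.97), with 0.37 in BN1 and 0.83 in BN2, and by 0.39 without 5% IH BN2. Cd14 differed by 0.37 (SE 0.13), with 0.28 and 0.47, and Tlr2 by 0.29 (SE 0.11), with 0.13 and 0.45. For all 3 genes the 5% IH arrays lay above the 10% IH arrays without overlap. Tlr2 was under the threshold without 5% IH BN2 (0.17) or 10% IH BN2 (0.25). After adjustment limma called 0 probe sets, with an adjusted p of 0.981 for each of the 3 genes, and 1452 (4.68%) had an unadjusted p under 0.05. Tlr4 (-0.10), Ly96 (0.12), Myd88 (-0.12) and Irak2 (0.05) did not meet the criterion, and their arrays overlapped. Traf6 1393809_at, at 0.05, was 0.40 and met the criterion without 10% IH BN2 and was -0.30 and met it without 10% IH BN1. Of the monocyte markers Adgre1 (0.55) was higher and the other 7 were not called.

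**Figure D3:**
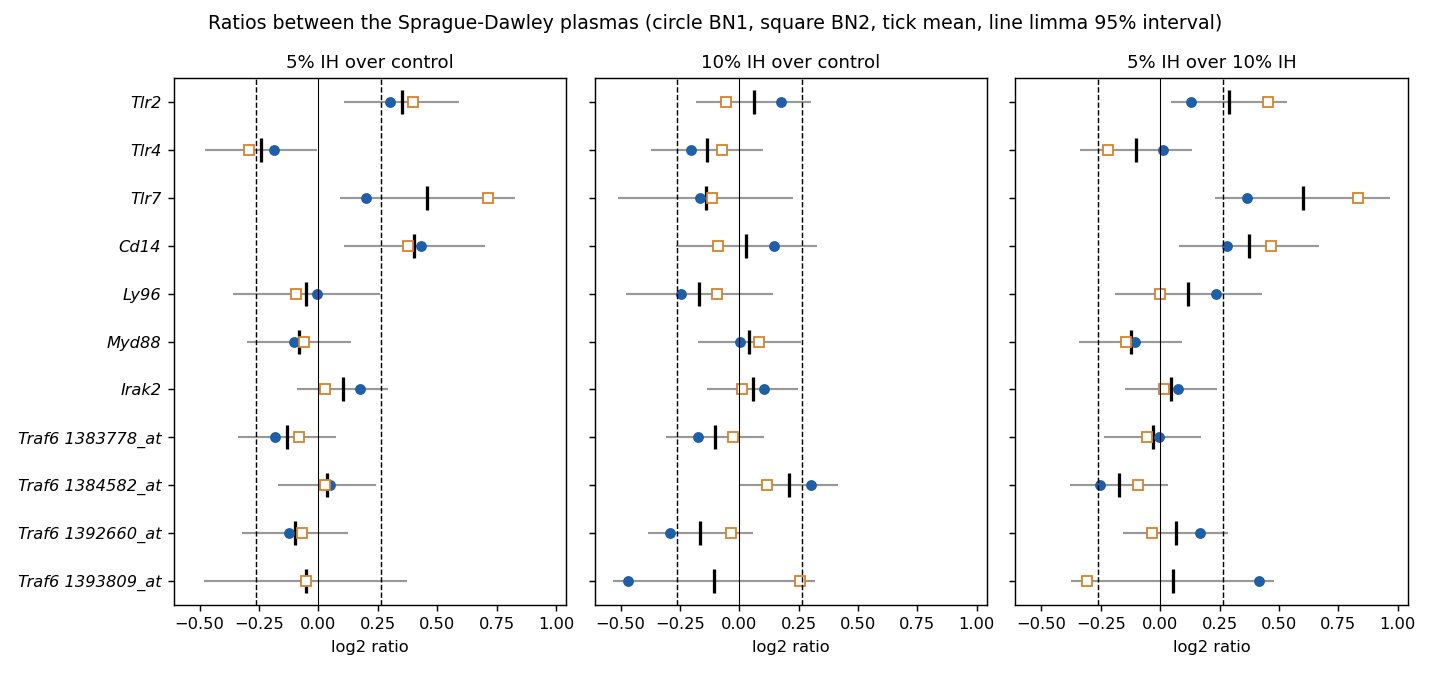
Log2 ratios of the 11 probe sets for 5% IH against control, 10% IH against control and 5% IH against 10% IH plasma, with 95% limma intervals as bars and the BN1 and BN2 ratios as circles and squares. Tlr7, Cd14 and Tlr2 lay at 0.46, 0.40 and 0.35 in the first comparison and at 0.60, 0.37 and 0.29 in the last, past the 1.2-fold threshold, while none of the 11 passed it against control with 10% IH plasma.

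The rest of the pathway was described through 7 lists with 46 genes, of which 36 were measured. Against autologous plasma 10 of 36 genes were higher with control plasma, where 5.33% of all probe sets were. With 5% IH plasma 11 were higher, where 5.41% were, and with 10% IH plasma 9, where 5.13% were. In each comparison 0 were lower, where with control plasma 5.15% of all probe sets were. Limma called 3, 4 and 2 of the 36 genes, where it called 1.78%, 1.96% and 1.25% of all probe sets. The median over the 36 genes was 0.08 for control plasma, against -0.01 over all probe sets. The endosomal receptor Tlr8 lay at 4.23 and 4.65 with autologous plasma and at 6.92 and 7.07 with control plasma (2.56, 5.90-fold, limma adjusted p = 0.000115). As with Cd14, its autologous levels lay under 4.87, so how much of that signal is Tlr8 transcript is not known. Tlr1, whose product pairs with TLR2, was higher by 0.35 by the criterion but was not called by limma. Of the 7 accessory proteins 4 were higher, among them Cd180 (0.81), a surface homolog of TLR4, and Hsp90b1 (0.59, limma adjusted p = 0.0277), the chaperone that folds the receptors. Lbp (0.30), which binds lipopolysaccharide, and Unc93b1 (0.27), which brings endosomal receptors to their compartment, were the others. Lbp lay between 3.64 and 4.20 on every array, under 4.87, so how much of its signal is transcript is not known. Unc93b1 was barely past the threshold, with a limma adjusted p of 0.610. It lay at 10.03 and 9.69 with autologous and at 10.12 and 10.14 with control plasma, so its ratio rested mostly on the lower autologous array.

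Below the receptors, 0 of 3 other adaptors (Tirap, Ticam1 and Sarm1) and 0 of 7 kinases, Irak1 and Irak4 among them, were called in any of the 6 comparisons. Of the ligases and scaffolds Traf3 was higher with control plasma (0.37), and of the negative regulators Irak3 (0.43), which encodes the inhibitory kinase homolog IRAK-M. Of the transcription factors Irf5 (0.76, limma adjusted p = 0.0243) and Irf7 (0.45) were higher, whereas Rela (-0.003) and Irf3 (0.05) were not called.

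Among the SD plasmas from 0 to 2 of these 36 genes were called per comparison. With 5% IH against control plasma 0 were higher and 0 lower. With 10% IH against control plasma Cd180 was lower (-0.38), 1 of 36 genes, where 3.37% of all probe sets were lower. It lay at 4.48 and 4.78 with 10% IH and at 5.09 and 4.93 with control plasma, near 4.87. With 5% IH against 10% IH plasma Tlr8 (0.32) and Traf3 (0.26) were higher, 2 of 36, where 3.28% were. The Tlr8 groups overlapped, and Traf3 was barely past the threshold (0.2645 against 0.2630). The other shares over all probe sets are the ones given above for each comparison.

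Genes that NF-kB induces early after receptor engagement were a further list, of which 5 of 6 were measured. Tnf, the inflammatory cytokine, lay at 4.73 and 5.00 with autologous plasma, 6.04 and 5.98 with control, 6.52 and 6.37 with 5% IH and 5.82 and 6.12 with 10% IH plasma. It was 2.21-fold higher with control than with autologous plasma (limma adjusted p = 0.0022), and both 5% IH arrays lay above all others. Nfkbiz, an inducible NF-kB cofactor, was higher with control plasma by 0.84, and Zc3h12a, an RNase that degrades cytokine transcripts, by 0.51. Zc3h12a lay at 6.40 and 5.68 with autologous and at 6.52 and 6.57 with control plasma. Its ratio thus rested mostly on the lower autologous array. With 5% IH against control plasma Tnf (0.44) and Nfkbiz (0.28) were higher, 2 of 5 genes, where 1.58% of all probe sets were. With 5% IH against 10% IH plasma Tnf (0.48) and Nfkbiz (0.29) were again, where 3.28% were. With 10% IH against control plasma 0 of 5 were called, where 3.58% of all probe sets were higher and 3.37% lower. Limma called 0 of the 5 in each of these comparisons after adjustment. Nfkbia, the NF-kB inhibitor, was not called among the SD plasmas, and neither was Il12b.

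**Figure D4:**
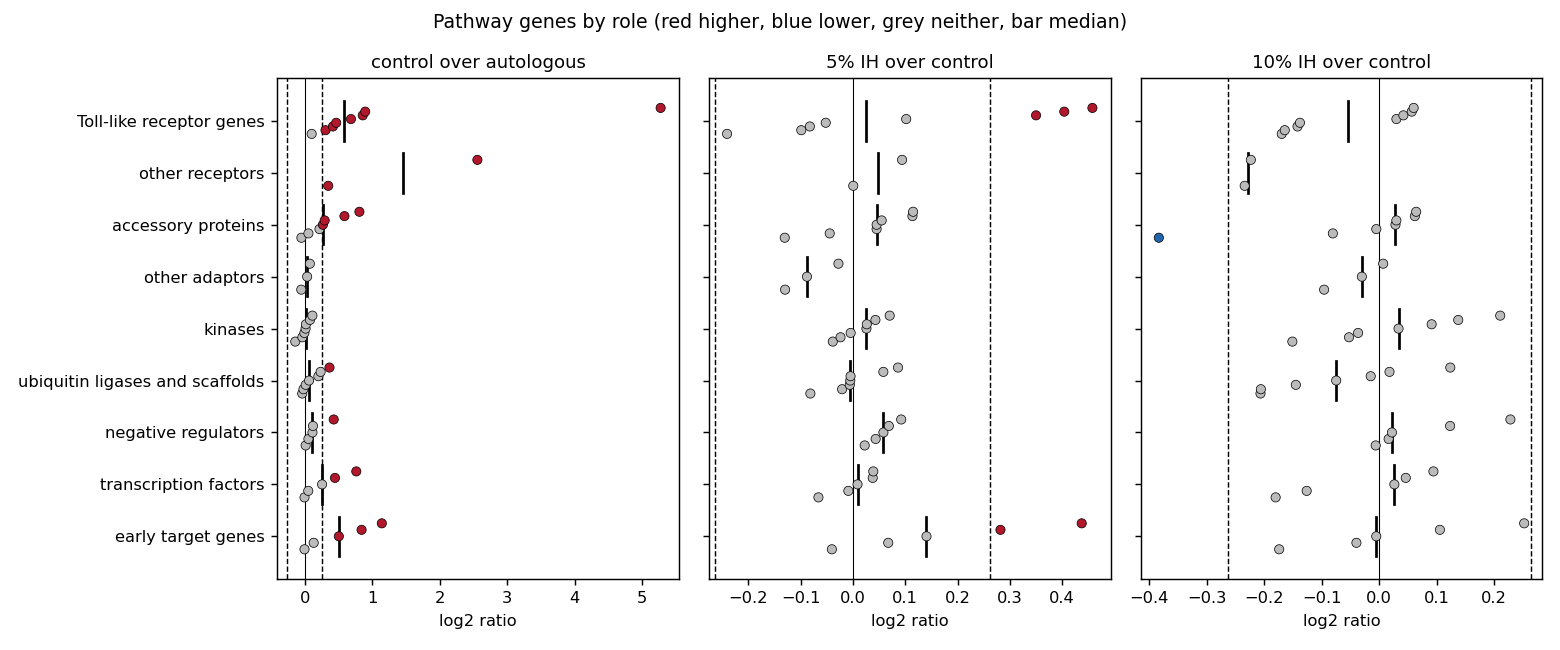
Log2 ratios of the 36 measured pathway genes and the early target genes, by list, for control against autologous plasma and for 5% IH and 10% IH against control plasma. Tlr8 lay at 2.56 and Tnf at 1.14 against autologous plasma, and none of the kinases and other adaptors met the criterion in any comparison shown. Per direction, from 1.52% to 5.33% of all probe sets met it in these comparisons.

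Across the 8 arrays the levels of the measured genes moved together to different degrees, largely through the step from autologous to SD plasma. As a description over arrays that share donors and pools, Pearson's r of Tlr2 with Cd14 was 0.965 over 8 arrays and 0.971 over the 6 SD plasma arrays, and that of Tlr2 with Tlr7 was 0.945 and 0.879. Tlr2 and Tlr4 had an r of 0.768 over 8 arrays and -0.735 over the 6. The genes with the pattern most like that of Tlr2 over the 8 arrays were Dram1 (0.995), Msmo1 (0.994) and Pstpip2 (0.992), and for Cd14 they were Lilrb4 (0.999), Nceh1 (0.999) and Mpeg1 (0.998). For Tlr7 they were Adgre1 (0.975), Slc7a5 (0.973) and Clic4 (0.967). Tlr4 was followed by Ppm1h (0.978), Septin10 (0.972) and Fkbp11 (0.969), and Ly96 by Ugp2 (0.966), Rbpms (0.964) and Sec24d (0.960). Irak2 ran closest to the cytokine gene Il1b (0.985), Taldo1 (0.983) and Ifngr2 (0.982), and Traf6 to LOC102547700 (0.972), Zdhhc14 (0.965) and Clec16a (0.965). Myd88 ran closest to Echdc3 (0.982), Klf16 (0.958) and Comp (0.941), but it only varied between 8.96 and 9.22. Echdc3, Comp and Septin10 had mean levels of 2.65, 3.86 and 3.56, under 4.87. How much of the signal of these genes is transcript is not known.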

How the data were processed

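Gene expression was measured in PBMCs of 2 BN rats after culture with 4 plasmas, on 8 Affymetrix rat arrays. The authors quantified the images with Expression Console and normalized them with Robust Multichip Analysis, which corrects background, normalizes by quantiles and summarizes probes, and deposited log2 values. The submitters' processing notes also name Partek, with neither version nor role. No further scaling was applied. Of 31042 probe sets, 20826 had 1 gene symbol, 436 several and 9780 none in the platform annotation, and a gene outside the Toll-like receptor group was read from its single-symbol probe set with the highest mean.

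The Rank Product was written out in Python 3.11.15 (4 between-array ratios, 100 permutations of values within arrays, 1-sided p), since the package named in the methods was not installed. The linear model (limma 3.58.1, R 4.3.3) had 1 mean per plasma group, used the 8 arrays together and held no donor effect. An exact permutation test of 2 arrays against 2 cannot give a p below 0.333 and was not used. Both tests were also run on simulated data with known changes, and the outcome is not reported here. The simulated noise was independent and held no donor or pool effect, so that run cannot check these limits of the design. By the titles, replicate numbers mark the reporter donor, although the donor pairing of the autologous arrays is not settled. Deviations from group means correlated between same-numbered arrays at 0.24, 0.059 and 0.165 among SD plasmas and at -0.0039, -0.083 and -0.17 with autologous plasma. Named genes were all 9 chosen genes, genes of the lists that met the criterion in any comparison, as examples, and the 3 most correlated genes for each of the 8 measured. The genes and lists were chosen with earlier results of these data known. Alternatives were the donor as a block, median centring, a second quantile normalization, dropping the dimmest probe sets (mean below the 40th percentile), a 2-sided Rank Product p, only the arrays compared, a trended robust limma fit, averaging the probe sets of Traf6, and leaving out each array.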

Additional observations from a re-analysis of the deposited data

How the results depend on the processing

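Only 2 arrays per group and 1 pool per plasma limit every comparison, and the array values hold no depth. The count of probe sets that met the criterion was 3251, 3337 and 3212 for control, 5% IH and 10% IH against autologous plasma and fell to 2090, 2154 and 1990 with a 2-sided Rank Product p. Without low probe sets it was 2216 (5% IH) and 2030 (10% IH) against autologous plasma, 238 (main value 963) for 5% IH and 1331 (2156) for 10% IH against control, and 1159 (1966) for 5% IH against 10% IH plasma. With the 2 compared groups alone, limma called 239 instead of 389 for 10% IH against autologous plasma and 1 instead of 0 for 10% IH against control. Leaving out single arrays gave criterion counts of 1939 to 2284 for 5% IH against control, 2745 to 3420 for 10% IH against control and 2690 to 3328 for 5% IH against 10% IH, and limma counts of 223 to 434 (551), 308 to 507 (609) and 259 to 568 (389) for control, 5% IH and 10% IH against autologous plasma, 0 to 46 for 10% IH against control and 0 to 57 for 5% IH against 10% IH. The median ratio of the measured genes then ran from 0.54 to 0.71, from 0.39 to 0.57 and from 0.41 to 0.56 for control, 5% IH and 10% IH against autologous plasma, from 0.0021 to 0.068 and from -0.092 to -0.011 for 5% IH and 10% IH against control, and from 0.024 to 0.20 for 5% IH against 10% IH. With the Traf6 probe sets averaged it was -0.0053 for 10% IH against control. Traf6 1393809_at changed direction, to -0.048 for 10% IH against autologous plasma without 10% IH BN2 (0.65 without BN1) and to -0.30 for 5% IH against 10% IH without 10% IH BN1 (0.40 without BN2). With the donor as a replicate block the criterion counts were 3132, 3078 and 2822 against autologous plasma and the same as without it among SD plasmas, where the 1.2-fold threshold decides them, and limma counts were 509, 585 and 377, and 0 among SD plasmas. The block moved the limma call of Traf6 1383778_at against autologous plasma (0.0603) and no other member call. It takes the donors of the autologous arrays from the titles, and that pairing is not settled. Over alternatives that keep all arrays, the 34 criterion calls of the 11 probe sets were kept in 163 of 170 cases, and the 7 losses were all against autologous plasma (Irak2, Ly96 and Traf6). The 11 limma calls were kept in 61 of 66 cases, with the losses in Tlr4 and Traf6 1383778_at, and 12 calls were gained. The cause of these changes was not tested.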
